A study of Drosophila melanogaster with 12 samples.

Results

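Cilia and flagella are built around an axoneme, a cylinder of microtubule doublets, and are maintained by intraflagellar transport (IFT), in which kinesin and dynein motors carry cargo along the axoneme on trains of IFT-B and IFT-A proteins. Axonemal dyneins, anchored on the doublets, power bending, and they are put together in the cytoplasm by assembly factors before they enter the cilium. Tektins are filamentous proteins inside the doublets. In Drosophila, cilia are known mainly from peripheral sensory neurons and sperm, and most neurons of the central nervous system (CNS) bear none.

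Here 10 genes of this machinery were followed, out of 17510 genes with a count in each library. They are the IFT-B genes IFT52 and nompB, the IFT-A genes Oseg4 and rempA, the tektin genes Tektin-C and Tektin-A, the dynein assembly factor gene Dnaaf3, the axonemal dynein intermediate chain genes Sdic3 and SdicA, and the axonemal dynein heavy chain gene Dhc93AB. The genes were chosen by FlyBase symbol, and partly on their changes in the very comparisons described here. Fold changes and calls of these 10 genes are therefore descriptions and not independent tests.

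mRNA of the CNS of larvae in the third instar was measured in 4 groups of 3 libraries, 12 libraries in all. CTCF0 animals carried independent CTCF knockout alleles in trans and came from mothers whose germline lacked CTCF, so that both maternal and zygotic CTCF were removed. Cp190KO animals carried independent CRISPR knockout alleles of the Cp190 reading frame in trans and still received maternal Cp190. Each mutant was set against its own w1118 wildtype (WT) control, and the study compared them to learn which genes depend on the insulator protein CTCF and its partner Cp190. Every library pooled 60 CNSs of larvae not separated by sex. The paper describes the animals as w1118 or mutant derivatives. Any further difference between the mutant and WT stocks cannot be told apart from the mutated gene.

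The libraries of the CTCF0 experiment held 11652548 to 17935428 gene counts each, and those of the Cp190KO experiment 16126996 to 21522453. CTCF transcripts averaged 2.26 ± 0.60 CPM in CTCF0 and 40.8 ± 1.5 CPM in WT (SD, n = 3 each), where CPM is the count scaled to a common library size after TMM normalisation. Cp190 transcripts averaged 32.0 ± 8.4 CPM in libraries labelled Cp190KO and 37.1 ± 11.6 CPM in WT, so the counts do not check that label. The third Cp190KO library stood apart, with 375 genes at 1 to 3 counts, against 1738 to 2199 in the other 11 libraries, and values resting on it are also given without it. CNS markers were well detected: the summed level of 8 genes for neurons, glia and neural stem cells was 583 to 1007 CPM in CTCF0 and 702 to 883 CPM in WT, and 395 to 1061 CPM in Cp190KO and 503 to 710 CPM in WT.

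The changes went in both directions within the axoneme and transport genes. In CTCF0, IFT52 was 27.9-fold higher than in WT and Tektin-C 229-fold lower. In Cp190KO, Tektin-C was 84.2-fold lower, Dnaaf3 96.7-fold higher, and no read at all was counted on Sdic3 and SdicA. rempA and nompB were not called in either mutant, and Tektin-A was listed at 0 in 11 of the 12 libraries. In whole CNSs, fewer cells of a type and less RNA per cell cannot be told apart, for these genes as for all others.

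**Figure D1:**
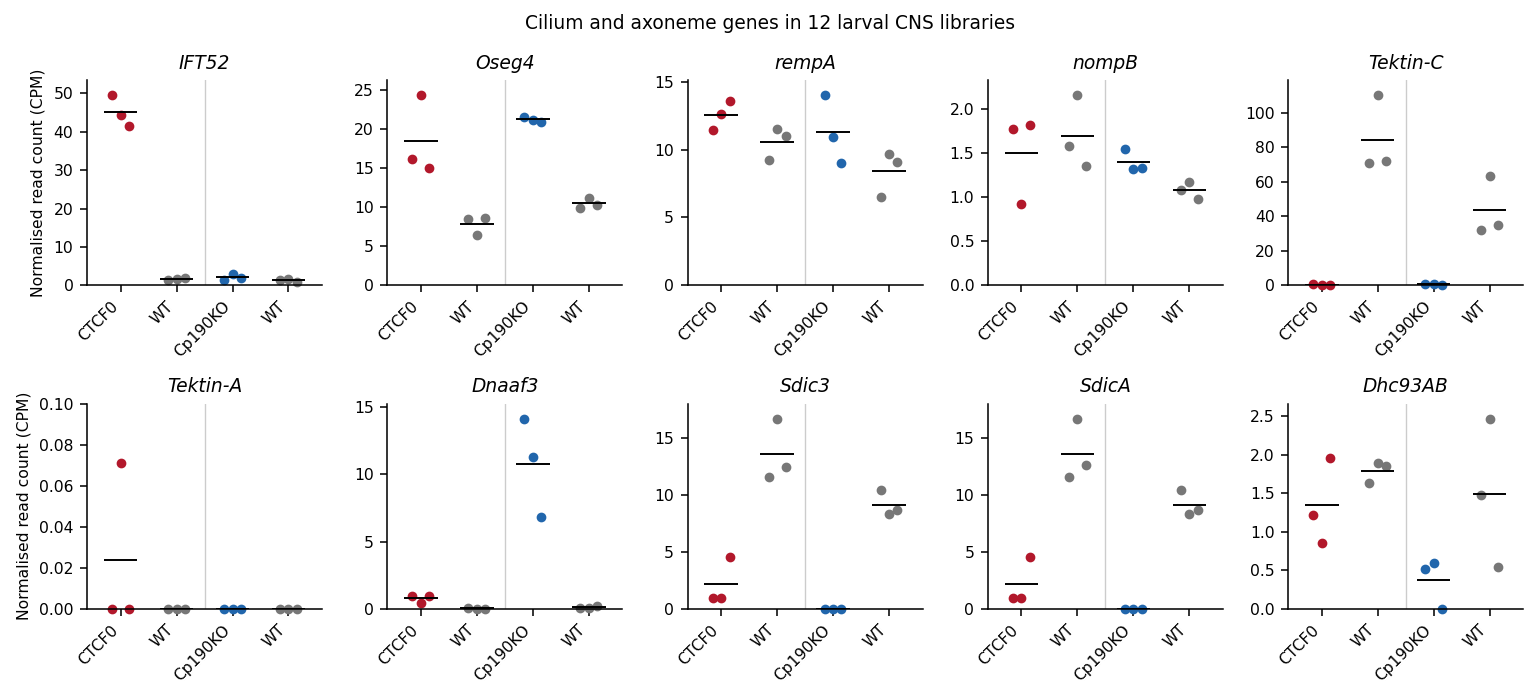
Normalised read count (CPM, linear axis from 0) of each of the 10 genes in every library: CTCF0 (red) and its WT control (gray) left of the vertical line, Cp190KO (blue) and its WT control (gray) right of it. Points are libraries and lines are means of 3. IFT52 was high in CTCF0 alone (41.6 to 49.5 CPM), Tektin-C was near 0 in both mutants, and Dnaaf3 was highest in Cp190KO (6.86 to 14.1 CPM).

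A gene was called differentially expressed (DE) where its fold change exceeded 1.5 and its p in edgeR's quasi-likelihood test, after the Benjamini-Hochberg adjustment, was below 0.05. Of the 10 genes, 8 passed the filter on low counts (at least 1 CPM in at least 3 libraries) in the CTCF0 comparison. Of these 8, 2 were called higher and 3 lower in CTCF0, where 2.81% of all 8718 genes tested were DE, 1.93% higher and 0.883% lower. Again 8 of the 10 genes passed the filter in the Cp190KO comparison. Of these, 2 were called higher and 3 lower in Cp190KO, where 2.41% of all 8599 genes tested were DE, 1.38% higher and 1.02% lower. The gene pair Sdic3 and SdicA counts as 2 of the lower genes each time but is treated as 1 measurement, as described below. In a model of all 12 libraries, the change differed between CTCF0 and Cp190KO for 3 of 9 genes tested (IFT52, Sdic3 and SdicA), against 1.42% of all 8954 genes. Since these same contrasts guided the choice of the genes, nothing about the group follows from these shares.

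IFT52, the gene of an IFT-B core subunit, lies on chromosome 2L (dm6, 6555717 to 6557502, minus strand). Its transcripts were counted 808, 626 and 573 times in the CTCF0 libraries and 24, 20 and 25 times in WT. The normalised levels were 49.5, 44.4 and 41.6 CPM in CTCF0 and 1.35, 1.72 and 1.78 CPM in WT. The lowest CTCF0 library was thus far above the highest WT library, and the log2 fold change was 4.80 ± 0.22 (SE). The call held with each of the 6 libraries left out, with log2 fold changes between 4.68 and 4.88.

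In Cp190KO, the change of IFT52 was not called. It was counted 32, 50 and 34 times in Cp190KO and 28, 26 and 16 times in WT, equal to 1.503, 2.99 and 1.88 CPM in Cp190KO and 1.38, 1.60 and 0.786 CPM in WT. The groups overlapped, with 2 of the 3 Cp190KO libraries above the highest WT library, and the log2 fold change was 0.76 ± 0.43. The change in CTCF0 exceeded that in Cp190KO by 4.05 ± 0.45 on the log2 scale, and this difference was called with each of the 12 libraries left out.

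Genes listed as markers of ciliated sense organs are given beside IFT52. Whether each of them is made in the ciliated cells themselves was not tested. Of 6 marker genes of chordotonal and other ciliated sensory neurons, nompA, which encodes an extracellular protein linking sensory dendrites to the cuticle, had 15.9 ± 3.1 CPM in CTCF0 and 0.379 ± 0.105 CPM in WT (log2 fold change 5.32, edgeR's adjusted p = 7.4e-05). This gene was named after its values were seen. The list summed to 24.9 to 29.8 CPM in CTCF0 and 11.2 to 12.6 CPM in WT. Without nompA, the other 5 genes summed to 9.07 to 13.1 CPM in CTCF0 and 10.8 to 12.2 CPM in WT, and the groups overlapped. The mechanosensory channel gene nompC had 2.26 ± 0.68 CPM in CTCF0 and 0.686 ± 0.308 CPM in WT and missed the threshold (edgeR's adjusted p = 0.063), while DESeq2 called it (adjusted p = 0.031). The odorant co-receptor gene Orco had 1.51 ± 0.55 CPM in CTCF0 and 3.30 ± 0.93 CPM in WT (log2 fold change -1.11, edgeR's adjusted p = 0.22). The TRPV channel genes nan and iav, which work in chordotonal cilia, had 0.225 and 1.90 CPM in CTCF0 and 0.219 and 2.15 CPM in WT. In Cp190KO, where IFT52 was not called, the whole list summed to 9.16 to 13.5 CPM, against 8.70 to 13.9 CPM in WT. By fluorescent in situ hybridization of RNA (RNA-FISH), the paper found IFT52 mRNA misexpressed in CTCF0 CNSs and no normal expression in WT CNSs. It names IFT52 among genes normally confined to other tissues, with testes as the tissue of IFT52. The paper also lists a CTCF peak close to IFT52 that overlaps a transcription start. With the counts used here, the part of ciliated sensory neurons in the change of IFT52 was not tested.

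nompB encodes the other IFT-B protein among the 10, known in flies for its need in sensory cilia of mechanosensory neurons (chromosome 2L, 21578292 to 21589423, minus strand). It was counted 29, 13 and 25 times in CTCF0 and 28, 25 and 19 times in WT, with overlapping levels of 0.922 to 1.82 CPM in CTCF0 and 1.35 to 2.16 CPM in WT. In Cp190KO it was counted 33, 22 and 24 times, and in WT 22, 19 and 20 times. The 3 Cp190KO levels, 1.32 to 1.55 CPM, lay above the 3 WT levels, 0.983 to 1.17 CPM, but the log2 fold change of 0.38 ± 0.34 was not called.

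Oseg4 and rempA encode IFT-A proteins, which serve mainly the return transport towards the cell body. Oseg4 (chromosome 3L, 1730993 to 1735767, minus strand) was counted 265, 343 and 206 times in CTCF0 and 151, 74 and 121 times in WT. Its normalised levels were 16.2, 24.3 and 14.96 CPM in CTCF0 and 8.52, 6.38 and 8.62 CPM in WT. In the other mutant it was counted 460, 354 and 378 times in Cp190KO and 202, 182 and 210 times in WT, equal to 21.6, 21.2 and 20.9 CPM in Cp190KO and 9.95, 11.2 and 10.3 CPM in WT. All 3 libraries of each mutant lay above the 3 libraries of its WT control.

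The log2 fold change of Oseg4 was 1.23 ± 0.25 in CTCF0 and 1.02 ± 0.19 in Cp190KO. The 2 changes differed by 0.23 on the log2 scale, with a 95% interval of -0.41 to 0.86, so a difference of up to 0.86 is not excluded by these libraries. Both calls were close to the threshold. The CTCF0 call held in 2 of 6 fits that left out a library and the Cp190KO call in 1 of 6, although the fold change itself moved little (log2 fold change 0.96 to 1.36 in CTCF0 and 0.96 to 1.03 in Cp190KO). The CTCF0 call was lost without any of the WT libraries and without the first CTCF0 library, and the Cp190KO call without any of the WT libraries and without the first or the third Cp190KO library. Oseg4 overlaps drpr on the same strand by 115 bases, and drpr had log2 fold changes of -0.04 in CTCF0 and -0.03 in Cp190KO.

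rempA, the gene of the IFT-A core protein IFT140, lies on chromosome 2L at 553742 to 560310 on the minus strand. It was counted 187, 178 and 187 times in CTCF0 and 164, 134 and 154 times in WT, equal to 11.4 to 13.6 CPM in CTCF0 and 9.26 to 11.6 CPM in WT. In Cp190KO its counts were 298, 182 and 163, and in WT 132, 157 and 185, equal to 9.02 to 14.0 CPM in Cp190KO and 6.50 to 9.68 CPM in WT. The groups overlapped each time, and the log2 fold changes of 0.25 ± 0.19 and 0.43 ± 0.28 were not called. rempA overlaps the gene Tspo on the opposite strand over 699 bases, and reads of the pair can be told apart only if the counting used strand, which is not stated.

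Tektin-C (chromosome 3L, 5794405 to 5796543, minus strand) was the gene of the 10 with the highest level per exonic length in both WT controls. It was counted 9, 4 and 3 times in CTCF0 and 1254, 1276 and 1015 times in WT, equal to 0.551, 0.284 and 0.218 CPM in CTCF0 and 70.8, 110 and 72.3 CPM in WT. In the other experiment it was counted 17, 11 and 1 times in Cp190KO and 653, 1028 and 716 times in WT, equal to 0.799, 0.659 and 0.0554 CPM in Cp190KO and 32.2, 63.4 and 35.2 CPM in WT. In each mutant the transcript was all but absent, at 0.416% of the WT mean in CTCF0 and 1.16% of the WT mean in Cp190KO.

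The log2 fold change of Tektin-C was -7.84 ± 0.36 in CTCF0 and -6.40 ± 0.68 in Cp190KO. Both calls held with each of the 6 libraries left out. Without the third Cp190KO library, which had 1 read, the log2 fold change in Cp190KO was -5.95. The change in CTCF0 minus that in Cp190KO was -1.43 on the log2 scale, with a 95% interval of -3.01 to 0.14, and was not called. The other tektin gene among the 10, Tektin-A (chromosome 2L, 15854126 to 15856450, plus strand), had 1 read in the second CTCF0 library and none elsewhere. At this depth, 0 counts allow up to 3 counts, or 0.139 to 0.257 CPM before scaling in these libraries, so no change of Tektin-A was detectable.

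Dnaaf3 encodes an assembly factor of axonemal dyneins and lies on chromosome arm 2R. It was counted 301, 189 and 124 times in Cp190KO and 1, 1 and 4 times in WT, equal to 14.1, 11.3 and 6.86 CPM in Cp190KO and 0.0492, 0.0617 and 0.197 CPM in WT. The log2 fold change was 6.59 ± 0.56, called with each of the 6 libraries left out, with 6.77 without the third Cp190KO library. In CTCF0 the gene was below the filter on low counts, but its counts of 16, 6 and 13 in CTCF0 and 1, 0 and 0 in WT did not overlap either. Its level was 0.783 ± 0.310 CPM in CTCF0, against 10.8 ± 3.7 CPM in Cp190KO. With no filter on low counts the log2 fold change in CTCF0 was 4.64 ± 0.87, and that fit called it. Every library of both mutants thus held more Dnaaf3 reads than any library of its WT control. The change in CTCF0 minus that in Cp190KO was -1.88 on the log2 scale, with a 95% interval of -5.94 to 2.18, and was not called.

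**Figure D2:**
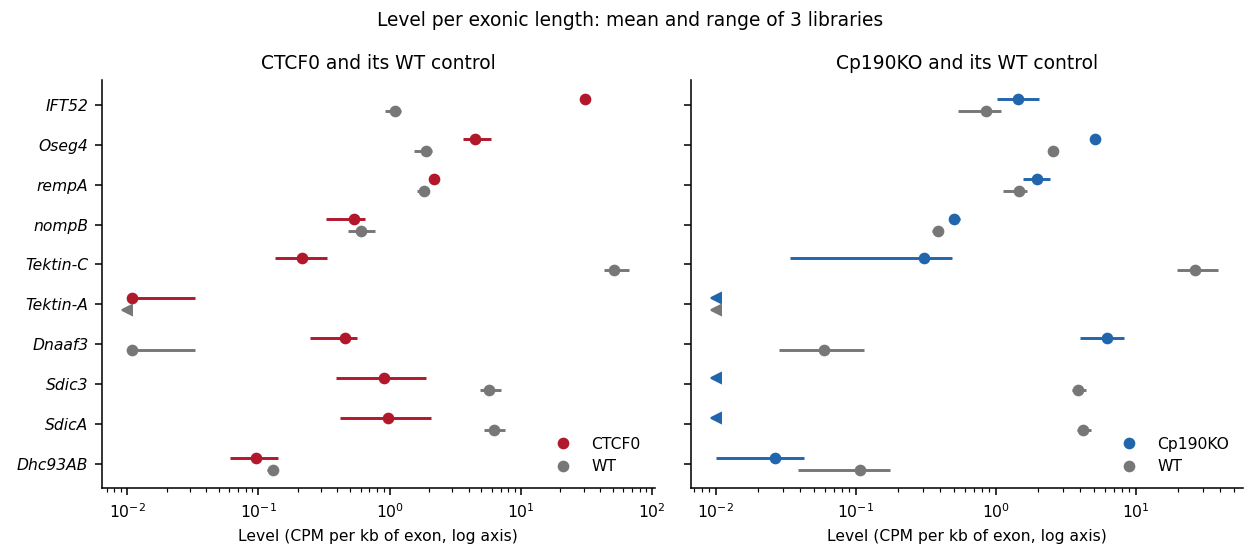
Level of each gene per exonic length (CPM per kb of exon, log axis) in CTCF0 (red) and its WT control (gray), left, and in Cp190KO (blue) and its WT control (gray), right. Circles are means and lines the range of 3 libraries, values under 0.01 are drawn at 0.01, and triangles are groups with a mean of 0. Tektin-C led both WT controls (51.5 and 26.6 CPM per kb), IFT52 led CTCF0 (30.7 CPM per kb) and Dnaaf3 led Cp190KO (6.24 CPM per kb).

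The order of the genes by level per exonic length therefore changed in both mutants. In CTCF0 the highest levels were IFT52 with 30.7 CPM per kb of exon, Oseg4 with 4.48 and rempA with 2.17, and their ranges over libraries did not overlap. In the WT control of CTCF0 the order was led by Tektin-C with 51.5 CPM per kb, followed by SdicA with 6.21 and Sdic3 with 5.73, and then by Oseg4 with 1.90, rempA with 1.84 and IFT52 with 1.10. In that control the ranges of Oseg4 and rempA overlapped, and so did those of SdicA and Sdic3. In Cp190KO the order was led by Dnaaf3 with 6.24 CPM per kb and Oseg4 with 5.14, whose ranges overlapped. In the WT control of Cp190KO the order of all 10 genes was the same as in the other WT control, while Tektin-C, with 26.6 CPM per kb, was lower there. The experiments were sequenced on different instruments and with different read lengths, so the level of a gene was not compared between them by a test.

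Sdic3 and SdicA belong to a tandem cluster on the X chromosome, known in Drosophila melanogaster as a family derived from the fusion of the cytoplasmic dynein gene sw with AnxB10, and encode an intermediate chain of the sperm axonemal dynein. Sdic3 lies at 20189440 to 20194227 and SdicA at 20197319 to 20201933, both on the minus strand. Their counts were equal in 11 of 12 libraries and differed by 3 reads in the remaining one, so the pair is treated as 1 measurement. How reads that match several copies were assigned is not stated, and this bears on Sdic2 and on the sum over the cluster too. Sdic3 was counted 16, 13 and 62 times in CTCF0 and 204, 193 and 174 times in WT, equal to 0.979, 0.922 and 4.50 CPM in CTCF0 and 11.5, 16.6 and 12.4 CPM in WT. In the other experiment it was counted 0 times in each Cp190KO library and 211, 135 and 176 times in WT, equal to 10.4, 8.33 and 8.65 CPM in WT. Both mutants were below their WT controls with no overlap.

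The log2 fold change of Sdic3 in CTCF0 was -2.67 ± 0.56. Its call held in 2 of 6 fits that left out a library, and was lost without any WT library or without the first CTCF0 library (log2 fold change -3.82 to -2.35). For Cp190KO, where every library was at 0, a floor of 3 counts per library puts the level at least 56.2-fold lower than in WT. The call in Cp190KO held with each library left out. The fitted changes differed between the mutants by 7.61 ± 1.41 on the log2 scale, a size that rests on the 0 counts, and this call held in 6 of 12 fits that left out a library. It was lost without the first or the third WT library of the CTCF0 experiment, any WT library of the Cp190KO experiment or the third Cp190KO library, at differences of 7.49 to 7.68.

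Sdic2, another copy of the cluster, was abundant in all groups. It was counted 445, 305 and 394 times in CTCF0 and 664, 454 and 581 times in WT, with 25.8 ± 3.7 CPM in CTCF0 and 39.3 ± 2.0 CPM in WT. In the other experiment it was counted 325, 436 and 356 times in Cp190KO and 543, 324 and 447 times in WT, with 20.4 ± 5.5 CPM in Cp190KO and 22.9 ± 3.5 CPM in WT. All 3 CTCF0 libraries, at 21.6 to 28.6 CPM, lay below the 3 WT libraries, at 37.5 to 41.4 CPM, while Cp190KO and WT overlapped. edgeR called neither change and DESeq2 called that in CTCF0 (edgeR's log2 fold change -0.61 ± 0.17 in CTCF0 and -0.17 ± 0.25 in Cp190KO). Sdic1, Sdic4, SdicB and SdicC had mean levels under 0.2 CPM in every group. Summed over the cluster, with the pair Sdic3 and SdicA taken once, the level was 28.2 ± 5.2 CPM in CTCF0 and 53.2 ± 3.5 CPM in WT. In the other experiment it was 20.5 ± 5.4 CPM in Cp190KO and 32.0 ± 4.6 CPM in WT. The parent gene sw, named after its values were seen, had 79.4 ± 9.8 CPM in CTCF0 and 89.3 ± 6.5 CPM in WT, and 71.0 ± 11.4 CPM in Cp190KO and 63.5 ± 13.5 CPM in WT.

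**Figure D3:**
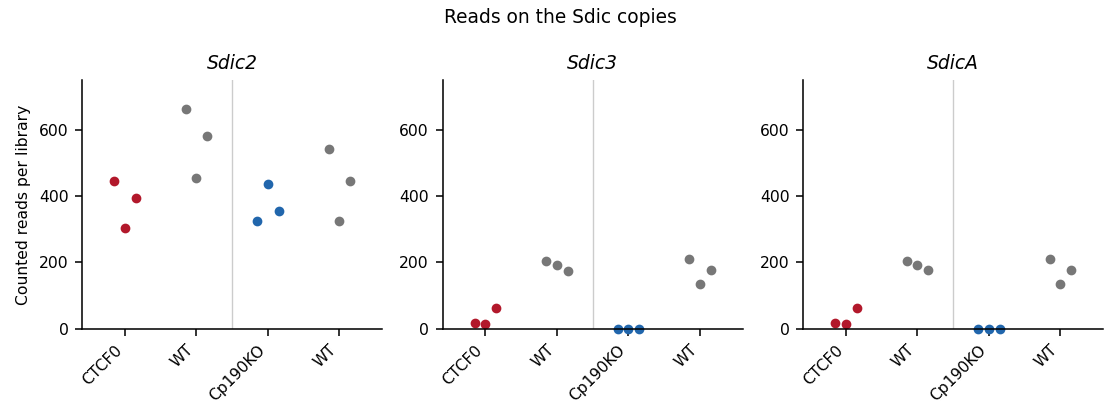
Counted reads per library on the Sdic copies Sdic2, Sdic3 and SdicA (linear axis from 0), with CTCF0 (red) and its WT control (gray) left of the vertical line and Cp190KO (blue) and its WT control (gray) right of it. Sdic3 and SdicA had equal counts in 11 of 12 libraries, with 13 to 62 in CTCF0, 0 in Cp190KO and 135 or more in WT. Sdic2 kept 305 or more reads in every library.

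Dhc93AB, the gene of a heavy chain of axonemal outer arm dynein, lies on chromosome 3R at 21024580 to 21042499 on the minus strand and has the longest exonic sequence of the 10 genes, 14010 bases. It was counted 20, 12 and 27 times in CTCF0 and 29, 22 and 26 times in WT, and the log2 fold change of -0.41 ± 0.34 was not called. In Cp190KO it was counted 11, 10 and 0 times and in WT 30, 40 and 11 times, and it did not pass the filter on low counts there. The 0 is in the third Cp190KO library, which has few genes at low counts altogether. Per length its level was 0.096 CPM per kb of exon in CTCF0 and 0.128 in WT.

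**Figure D4:**
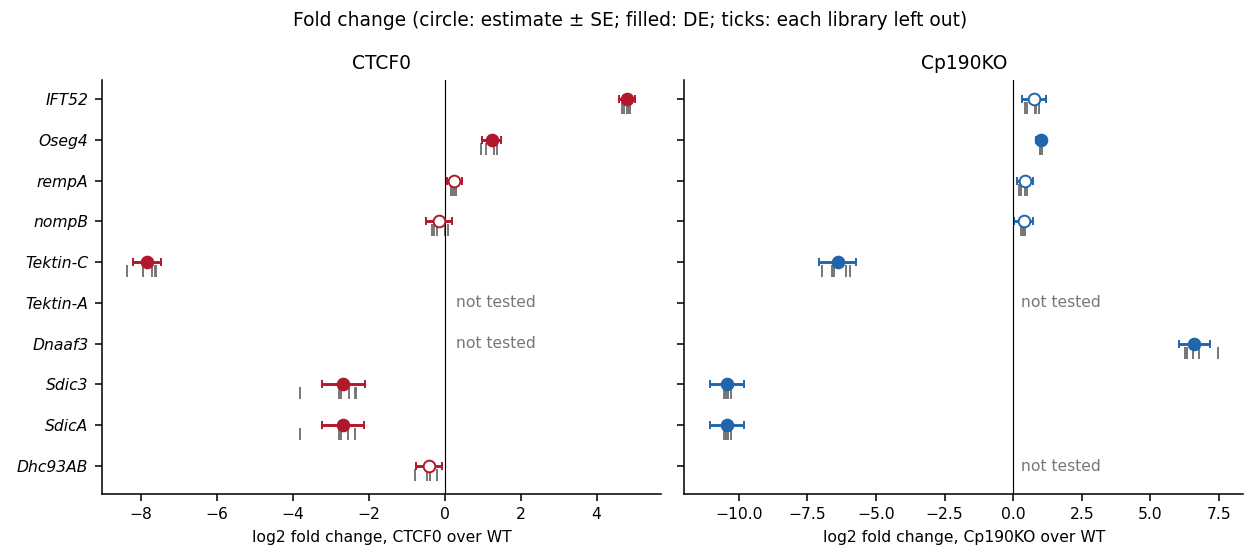
Log2 fold change of each gene in CTCF0 over WT (left) and in Cp190KO over WT (right). Circles and bars are estimates ± SE, filled circles were called DE, and gray ticks below are the estimates with each library left out. The positions of Sdic3 and SdicA in Cp190KO rest on 0 counts and are not a bound, and genes under the filter on low counts are marked as not tested.

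Sperm is the other place where Drosophila builds axonemes, so testis genes are given beside Tektin-C, Dnaaf3 and the Sdic pair. They are also given beside IFT52, for which the paper names testes as the normal tissue. Of 27 testis genes, 16 had at most 3 reads in any of the 12 libraries, among them the genes of the sperm chromatin proteins ProtA and ProtB and most Mst genes of spermatids. The Y-linked dynein heavy chain genes kl-2, kl-3 and kl-5, needed for sperm motility, were at 0 reads in every library. The summed level of the 27 genes was 46.0 to 84.3 CPM in CTCF0 and 43.3 to 71.2 CPM in WT, and 38.7 to 43.7 CPM in Cp190KO and 37.0 to 39.1 CPM in WT, so it overlapped between each mutant and its control. Most of it came from bol, betaTub85D, twe and mia, all detected in each group. Within the list, can, a gene of a testis-specific transcription factor subunit, had 9.49 ± 5.63 CPM in CTCF0 and 1.15 ± 0.31 CPM in WT (edgeR's adjusted p = 0.016). bam, which drives germ cell differentiation, had 0.851 ± 0.250 CPM in CTCF0 and 3.52 ± 0.23 CPM in WT (edgeR's adjusted p = 0.0081), and vas, a germline helicase gene, had 2.66 ± 0.58 CPM in Cp190KO and 0.669 ± 0.124 CPM in WT (edgeR's adjusted p = 0.037). With a library left out, the call of bam held in 6 of 6 fits. That of can held in 4, lost without the first or the third WT library, and that of vas in 1, lost without any WT library and without the first or the third Cp190KO library. At the can locus, the paper found by RNA-FISH a transcript antisense to can that is misexpressed in CTCF0 CNSs. Since it is not stated whether counting used strand, reads of can and of this transcript cannot be told apart. The higher count of can in CTCF0 therefore does not show a rise of the testis gene itself. These 3 genes were named after their values were seen. The part of germ cells in the changes of IFT52 and the axoneme genes was not tested.

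Markers of other tissues that can stay attached to a dissected CNS were detected in every group. Hemocyte markers, of which Ppn was the highest, summed to 7.48 to 21.2 CPM in CTCF0 and 4.06 to 4.92 CPM in WT without overlap, and to 7.80 to 15.03 CPM in Cp190KO and 3.39 to 10.4 CPM in WT. Fat body markers, led by Fbp1, summed to 6.17 to 37.0 CPM in CTCF0 and 7.56 to 51.5 CPM in WT, and to 4.84 to 23.1 CPM in Cp190KO and 5.21 to 24.3 CPM in WT. Muscle markers, led by Tm1, summed to 143 to 264 CPM in CTCF0 and 156 to 270 CPM in WT, and to 126 to 201 CPM in Cp190KO and 105 to 142 CPM in WT. Ring gland markers, led by sad, summed to 83.0 to 116 CPM in CTCF0 and 69.4 to 88.8 CPM in WT, and to 9.64 to 19.7 CPM in Cp190KO and 7.68 to 120 CPM in WT. Of these lists, Mlc2 and Akh, named after their values were seen, were called higher in CTCF0 by edgeR, each in 3 of 6 fits that left out a library, and both lost without the first or the third WT library or the first CTCF0 library. DESeq2 also called Hml, a hemocyte marker, higher in CTCF0, with 3.79 ± 3.77 CPM in CTCF0 and 0.525 ± 0.592 CPM in WT. With these counts, the part of attached tissue in the changes of the cilium and axoneme genes was not tested. For IFT52, the RNA-FISH of the paper shows the misexpressed mRNA in CTCF0 CNSs.

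The genes next to the 10 were examined since CTCF and Cp190 act at borders between genes. Of 21 nearest or overlapping neighbours, 10 were tested in each comparison. In CTCF0, 1 of the 10 was called DE by edgeR, beside 2.81% of all genes tested. DESeq2 called 1, and 2 had an unadjusted p under 0.05 in edgeR. The gene called by edgeR was Ets21C, a transcription factor gene 818 bases downstream of rempA on the same strand. It had 12.1 ± 3.0 CPM in CTCF0 and 4.08 ± 0.78 CPM in WT (log2 fold change 1.56 ± 0.27, edgeR's adjusted p = 0.018). This call was lost without any WT library, at log2 fold changes of 1.46 to 1.73. In Cp190KO 0 of the 10 were called by edgeR, beside 2.41% of all genes tested, 0 had an unadjusted p under 0.05, and DESeq2 called 0. COX5B, 297 bases from IFT52, had log2 fold changes of -0.28 in CTCF0 and -0.06 in Cp190KO. Bre1 and S6k, which flank Tektin-C, had 0.11 and -0.40 in CTCF0 and 0.28 and 0.23 in Cp190KO, and rswl, directly adjacent to Dnaaf3 on the other strand, had 0.21 in CTCF0 and 0.08 in Cp190KO. None of the tested genes beside IFT52, Tektin-C and Dnaaf3 was thus called. The 10 genes lie on 5 chromosome arms, and besides the Sdic pair none were neighbours of each other.

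The wider machinery was followed in 71 genes on 10 lists, the 10 genes included. In the WT control of CTCF0, 42 of the 71 had a mean under 1 CPM and 14 had 10 CPM or more, and in that of Cp190KO 40 and 12. In the CTCF0 comparison 33 were tested, and the 5 called were the 5 already described, beside 2.81% of all genes tested. Of the other 25 tested, edgeR called 0 and DESeq2 called 1, beside 392 of all 8718 genes with DESeq2. In edgeR, 8 of the 25 had an unadjusted p under 0.05, a larger share than the 12.1% of all genes tested. The median log2 fold change of the 33 was 0.13, beside 0.01 over all genes tested. In the Cp190KO comparison 35 were tested, and 5 were called higher and 3 lower, beside 1.38% higher and 1.02% lower of all genes tested. The median log2 fold change was 0.24, beside 0.08 over all genes tested. The 3 genes called there besides the 10 were all higher in Cp190KO, namely Oseg2, BBS8 and B9d1. Of the 27 tested besides the 10, DESeq2 called 6, beside 440 of all 8599 genes. In edgeR, 9 of the 27 had an unadjusted p under 0.05, a larger share than the 13.1% of all genes tested. The lists were chosen with earlier results known, and these shares were not tested.

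By function, IFT-B had 1 of 5 tested genes called in CTCF0 (IFT52) and 1 of 4 in Cp190KO (Oseg2). Of all genes tested, edgeR called 2.81% in CTCF0 and 2.41% in Cp190KO. Oseg2 encodes the IFT-B protein IFT172 and was counted 112, 41 and 48 times in Cp190KO and 9, 7 and 16 times in WT. The levels were 5.26, 2.46 and 2.66 CPM in Cp190KO and 0.443, 0.432 and 0.786 CPM in WT, without overlap (log2 fold change 2.62 ± 0.48, edgeR's adjusted p = 0.034). The call was lost in 5 of 6 fits that left out a library, all but the one without the second Cp190KO library, at log2 fold changes of 2.17 to 2.97. In CTCF0, Oseg2 had 1.99 ± 0.25 CPM, against 0.979 ± 0.134 CPM in WT, and was not called. IFT-A had 1 of 5 called in each mutant, Oseg4 both times, while Oseg1, Oseg6 and IFT43 had log2 fold changes of 0.10, 0.42 and 0.05 in CTCF0 and -0.34, 0.11 and -0.17 in Cp190KO.

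B9d1 encodes a component of the transition zone, the gate at the base of the cilium (chromosome 3R, 15481906 to 15482904, plus strand). It was counted 111, 144 and 114 times in Cp190KO and 1, 1 and 3 times in WT, equal to 5.21, 8.62 and 6.31 CPM in Cp190KO and 0.0492, 0.0617 and 0.147 CPM in WT. The log2 fold change was 6.15 ± 0.50 (edgeR's adjusted p = 0.0032), called with each library left out. In CTCF0 it was counted 1, 2 and 0 times and in WT 3, 3 and 0 times, under the filter on low counts. The change in CTCF0 minus that in Cp190KO was -7.10 ± 1.30 on the log2 scale (edgeR's adjusted p = 0.015), lost without the first or the second WT library of the CTCF0 experiment. Cp190, whose reading frame is deleted in Cp190KO, lies on the same chromosome arm as B9d1, 3R, at 15270432 to 15275241. The part of the chromosome that carries this deletion in the change of B9d1 was not tested. BBS8, a gene of the BBSome coat that moves membrane proteins in cilia, was counted 46, 42 and 70 times in Cp190KO and 2, 7 and 1 times in WT, with 2.85 ± 0.90 CPM in Cp190KO and 0.193 ± 0.208 CPM in WT. Its log2 fold change of 3.93 ± 0.67 (edgeR's adjusted p = 0.028) was called in 3 of 6 fits that left out a library, and lost without the first or the third WT library or the third Cp190KO library (log2 fold change 3.45 to 5.13 over the 6 fits).

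No further gene of the lists was called by edgeR, while DESeq2 also called Sdic2 in CTCF0 and Dhc16F, Dhc36C and CG9313 in Cp190KO. The 5 tested ciliary motor genes, among them Klp64D, Klp68D and Kap3 of kinesin-II, which drives outward transport, had log2 fold changes of -0.02 to 0.80 in CTCF0 and -0.54 to 0.61 in Cp190KO. Kinesin-II also serves transport in axons. Rfx, a transcription factor of ciliary genes, had log2 fold changes of 0.45 in CTCF0 and 0.20 in Cp190KO. Among axonemal dynein heavy chains, Dhc16F of the inner arm was counted in Cp190KO at 2.12 ± 0.90 CPM and in WT at 0.103 ± 0.178 CPM, with a log2 fold change of 4.45 ± 0.97 that missed the threshold (edgeR's adjusted p = 0.075). It passed in edgeR with no filter on low counts (adjusted p = 0.030) and in DESeq2 (adjusted p = 0.0030). Dhc36C, another heavy chain gene, and CG9313, an intermediate chain gene, had log2 fold changes of 1.44 and 1.56 in Cp190KO (edgeR's adjusted p = 0.12 and 0.14). Zmynd10, an assembly factor of axonemal dyneins like Dnaaf3, had 1.57 ± 0.17 CPM in CTCF0 and 3.31 ± 0.34 CPM in WT (log2 fold change -1.07, edgeR's adjusted p = 0.072). Dhc16F, Dhc36C, CG9313 and Zmynd10 were named after their values were seen.

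**Figure D5:**
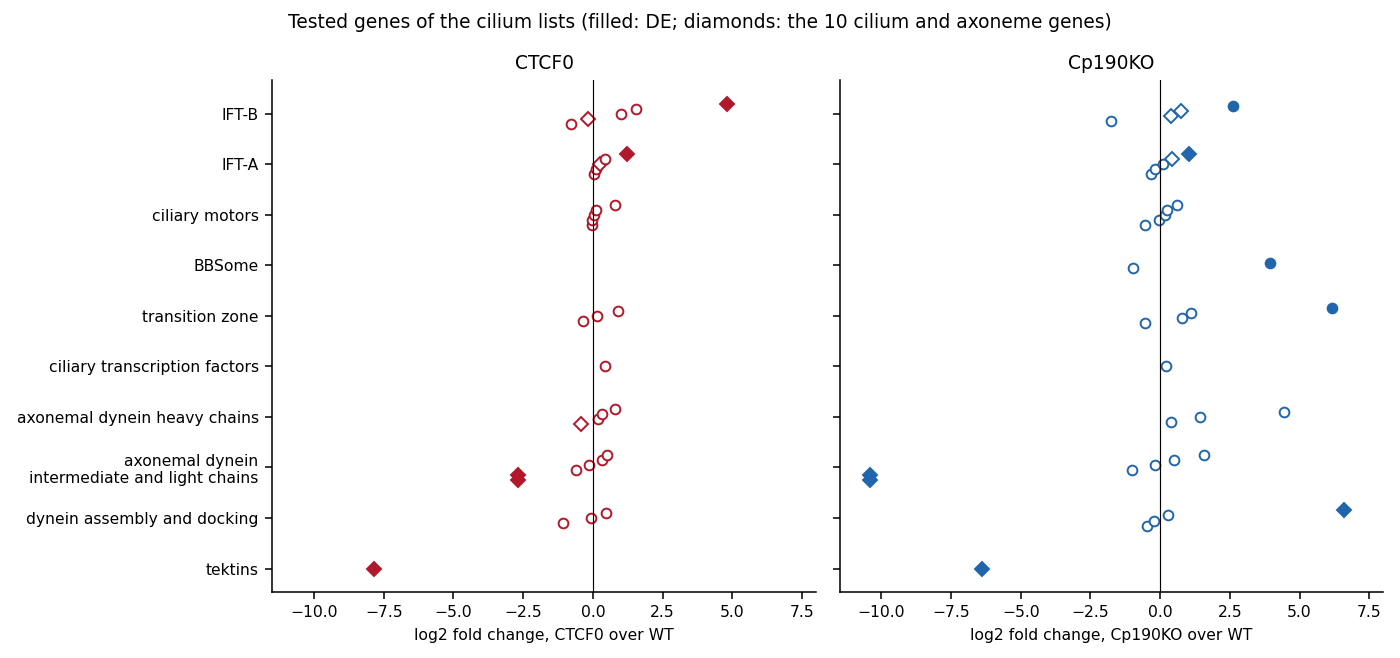
Log2 fold change of each tested gene of the 10 cilium lists in CTCF0 over WT (left) and in Cp190KO over WT (right). Diamonds are the 10 cilium and axoneme genes, circles the others, and filled symbols were called DE. The filled circles are Oseg2, BBS8 and B9d1 in Cp190KO.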

How the data were processed

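Poly(A)-selected, stranded libraries were sequenced as paired-end reads of 100 bases for the CTCF0 experiment and single reads of 150 bases for the Cp190KO experiment. Mapping to the dm6 genome and counting per FlyBase gene (HTSeq 0.9.1) were done by the authors, and the deposited values are raw counts. The strand option and overlap mode are not given in the sources used here. Lines that name no gene, 22.6% to 34.8% of each file's total, were left out. A count of 3 was taken as the floor, and floors cover counting error only.

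Libraries were grouped by their labels. Counts were fitted with edgeR 4.0.16 (R 4.3.3), using TMM scaling, a filter of 1 CPM in at least 3 of the libraries fitted, and the robust quasi-likelihood test (two-sided). P-values measure the spread between 3 pools of animals per group. SE is the log2 fold change divided by the square root of F. The difference between mutants was fitted over all 12 libraries. CPM values use effective library sizes, and CPM per kb uses the union of exons in an annotation of dm6. Tests were checked on simulated data with 200 genes changed 3-fold: edgeR recovered 90.0% of them in the CTCF0 comparison (8718 genes), 72.5% in the Cp190KO comparison (8599 genes) and 40.5% for the difference (8954 genes). It made 14, 14 and 4 false calls in these comparisons. DESeq2 recovered 91.5%, 88.0% and 55.5% and made more false calls, 37, 55 and 22. Calls made by DESeq2 alone are therefore treated with more caution here. Whether the simulation favours either tool was not tested. The paper used DESeq2 and reported 392 DE genes in CTCF0 and 440 in Cp190KO, the same numbers as DESeq2 called here.

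The 10 genes, the gene lists and the alternatives were chosen with earlier results of these data known. Named were the 10 genes, other cilium genes called in any comparison, CTCF, Cp190, called neighbours and the highest gene of each marker list. Genes named outside this rule are given as such or stand for their list. Of 154 list entries, 141 matched a gene in the files. Alternatives were RLE scaling, library sizes only, DESeq2 1.42.0, other filters, a replicate block, 1 fit of all libraries, no fold change threshold, and each library left out with the genes tested kept. Promoter motifs were not searched and no sequence is shown, since none was used here. CTCF peaks and Hi-C data were not analysed here.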

Additional observations from a re-analysis of the deposited data

Results flagged for a closer look

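For 4 cilium genes the change in CTCF0 differed from the change in Cp190KO by edgeR's test of the difference over all 12 libraries with Benjamini-Hochberg adjustment. IFT52 had a difference of 4.05 on the log2 scale (adjusted p = 0.00029), with all 3 CTCF0 libraries above WT and overlap with WT in Cp190KO. Sdic3 had a difference of 7.61 and SdicA one of 7.60 (adjusted p = 0.025 each), with equal counts in nearly every library. The pair was lower in 3 of 3 libraries of both mutants and at 0 in Cp190KO. B9d1 had a difference of -7.10 (adjusted p = 0.015), higher in 3 of 3 Cp190KO libraries and at 3 or fewer reads in CTCF0 and its WT control. B9d1 and Cp190 lie on the same chromosome arm, and the part of the linked deletion was not tested. IFT52, Sdic3 and SdicA were chosen with these contrasts known.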

How the results depend on the processing

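The 245 DE genes in CTCF0 became 392 with DESeq2, 382 with no filter and 145 with a replicate block, and 119 to 651 with a library left out. The 207 in Cp190KO became 440 with DESeq2, 354 in 1 fit of all libraries and 89 with a replicate block, and 51 to 413 with a library left out. The 127 genes that differed between the mutants became 213 with DESeq2 and 60 with a replicate block, and 76 to 134 with a library left out.

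Of the 10 genes, 5 were called in CTCF0, 3 with library sizes only, and 2 to 5 with a library left out, where the lost calls were those of Oseg4, Sdic3 and SdicA. Over all cilium lists the 5 became 6 with DESeq2, 3 with library sizes only and 2 to 8 with a library left out. In Cp190KO the 8 called over all cilium lists became 11 with DESeq2, 5 with a replicate block and 5 to 10 with a library left out. For the difference between mutants, the 3 called among the 10 genes became 1 with a replicate block and 1 to 3 with a library left out, and the 4 over all cilium lists became 2 and 1 to 4. The calls of IFT52 and Tektin-C in CTCF0, and of Tektin-C, Dnaaf3 and the Sdic pair in Cp190KO, held under each alternative run. Only values near 0 or with a wide error turned: with a library left out, nompB in CTCF0 ranged over -0.33 to 0.073, the difference of Oseg4 over -0.043 to 0.35 and that of Dnaaf3 over -2.73 to 0.092 on the log2 scale. The cause of these shifts was not tested.

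Same-numbered libraries of the CTCF0 experiment were on average not more alike than others. There the correlation was -0.54 to -0.20 for same-numbered libraries (mean -0.42) and -0.29 to 0.57 for others (mean 0.20). In the Cp190KO experiment it was -0.0067 to 0.52 for same-numbered libraries (mean 0.20) and -0.42 to 0.42 for others (mean -0.10). The ranges overlap in both experiments, so pairing is not settled for either. With the block, the calls of Oseg4 in both mutants, of Oseg2 and BBS8 in Cp190KO, of Ets21C in CTCF0 and of the difference of the Sdic pair were lost. Depth limited Tektin-A and, under the filter on low counts, Dhc93AB in Cp190KO and Dnaaf3 in CTCF0.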
